A study of Mus musculus with 150 samples.

Results

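Lungs of styrene-exposed wild-type and CYP2F2-null mice were compared after 26 weeks of exposure, in the 9 arrays whose labels give a dose of 120 ppm and 26 weeks. Of these, 5 came from wild-type C57BL/6 mice (WT) and 4 from C57BL/6 mice homozygous for a CYP2F2 knockout (KO), out of 150 arrays in the series. All 9 were adult males, each array held RNA of 1 whole lung, and all 9 lay on plate 1 of the array plates. The series covers air and 120 ppm styrene at 26, 52, 78 and 104 weeks in WT, KO, outbred CD-1 mice and CYP2F2-null mice with a transgene labelled 2F1, SA13, 2B6 (TG). The exception is WT in air at 26 weeks, which none of the 150 arrays holds. For WT at this week styrene and line thus cannot be told apart. Other mice gave the reference values: KO in air at 26 weeks (5 arrays), CD-1 in air and in styrene at 26 weeks (5 each), and WT and KO of the later weeks in styrene (15 each) and in air (11 and 15). The treatment protocol names shorter exposure periods than the samples' own labels, and the samples' labels were used.

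Styrene is an aromatic solvent that cytochrome P450 enzymes oxidise to reactive products. In mouse lung most of that oxidation is credited to CYP2F2, a P450 of the club cells that line the small airways. The products are removed by epoxide hydrolases and glutathione transferases, and electrophiles that escape can activate the transcription factor Nrf2, which raises enzymes of quinone, peroxide and carbonyl reduction. Whole lung mixes many cell types, so fewer cells of a type and less RNA per cell cannot be told apart.

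All values are log2 intensities normalised by RMA, and a difference of 1 is a doubling. Means are given with the SD over 5 WT and 4 KO arrays, unless another group is named. A gene was called when limma's adjusted p (Benjamini-Hochberg) was under 0.05. Of 15695 genes tested, 53 were called between exposed WT and KO lungs, which is 0.338%. Of these, 37 (0.236%) were higher and 16 (0.102%) lower in WT, by 0.36 to 4.67 in size with a median of 0.87. The WT and KO arrays did not overlap for 50 of the 53, against 16.2% of all genes, 1402 of them with all WT arrays above and 1140 below. The 53 were selected by their difference in these same arrays, so their lack of overlap adds no support. The median difference of all genes was 0.06.

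The size of this set depended on the arrays used to estimate the spread. With the 9 arrays alone 2200 genes were called (1021 higher, 1179 lower) and with the 26-week arrays alone 1041, both including all 53. The C57BL/6 arrays alone gave 123, with 52 of the 53. Some genes said below not to pass with all arrays did pass in these fits. Without single arrays the count was 30 and 29 (WT replicates 2 and 3), 120, 30, 29 and 22 (KO replicates 1 to 4), and 51, 48 and 50 without the other WT arrays. In the plate, 1 WT and 1 KO array lay in row A and the others in rows B (WT) and C (KO), so row and line almost coincide. Without the row A arrays 81 genes were called (33 higher, 48 lower), 39 of them among the 53.

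The 9 arrays also stood apart along an axis on which arrays of a single group differ in the whole series. It was found by principal component analysis after each group's mean was subtracted, over arrays up to 78 weeks, and held 23.7% of the remaining variance. WT arrays scored -14.5, -15.7, -29.3, -4.69 and -4.73, and KO arrays 7.20, 7.27, 12.9 and 12.7. Every KO array thus lay above every WT array, while the 5 KO air arrays ran from -10.7 to 8.32. Over genes, which are not independent replicates, the axis loadings correlated with the WT minus KO difference at Pearson's r = 0.69. With the score as a covariate, a fit added after the data were seen, 24 genes were called, 23 of them among the 53. The score was computed from the same values and separated WT from KO. This fit can therefore also take away part of the line difference, and a call lost in it does not show an absent difference.

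**Figure D1:**
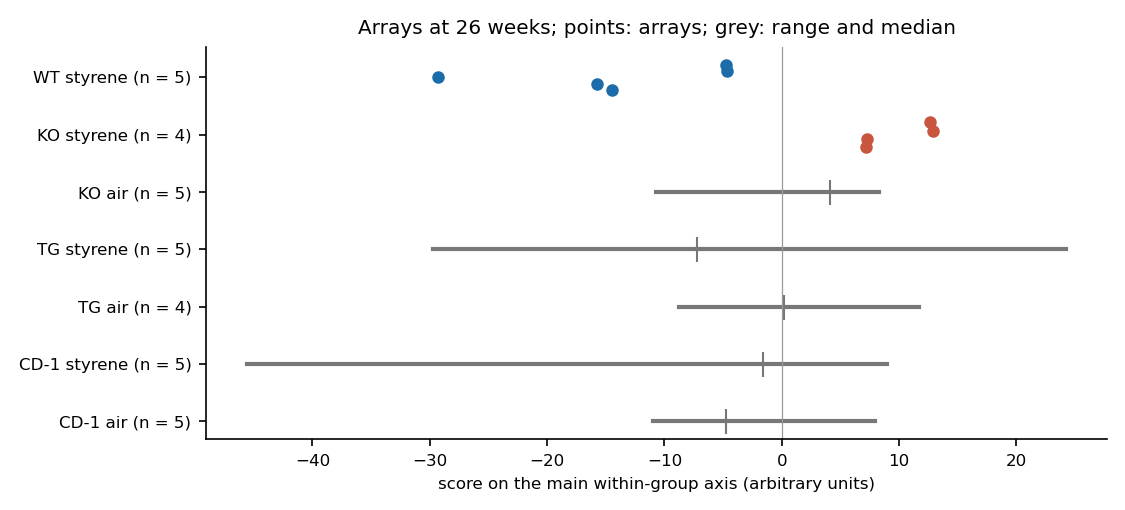
Score of each 26-week array on the main axis of within-group differences (arbitrary units), with points for WT and KO styrene arrays and range and median for the other groups. The 5 WT arrays lie between -29.3 and -4.69 and the 4 KO arrays between 7.20 and 12.9.

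A core of 16 called genes passed limma's test in every alternative fit that held them, including each fit without 1 array, without row A and with the covariate. Higher in WT were Cyp2f2, Ces1g, Fetub, Serpind1, Il1f9, Nqo1, Gpx2, Cbr3, Opn3, Ugt1a9 and Krtap5-5, and lower were Atp6v1b1, Wdr63, Lrmda, Acpp and Sorl1.

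Cyp2f2, on chromosome 7, is the targeted gene. Its level was 13.25, 13.31, 13.33, 13.22 and 13.17 in the WT arrays and 12.16, 12.51, 12.55 and 12.38 in the KO arrays. The groups did not overlap, and every KO array was below every WT array. The difference was 0.86 (1.81-fold, SE 0.121, limma adjusted p = 3.1e-07). In air at later weeks it was 1.31 and in styrene at later weeks 1.06. Signal in KO lungs stayed far above the filter on dim genes. The sources used here do not say which exons were removed, and a probe outside them would check nothing.

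No other member of the 15 measured P450 and epoxide hydrolase genes was called, and 12 of the 15 differences were positive. Their median was 0.18, against 0.06 over all genes. Cyp4f13, a P450 outside this list, was called at 6.30 in WT and 5.76 in KO (0.54). It lost its call in 7 of 21 alternative fits. Cyp2a5, another lung P450, was at 10.77, 10.30, 10.38, 10.51 and 9.89 in WT and 8.21, 9.70, 10.91 and 8.98 in KO (0.92, adjusted p = 0.292). KO replicate 3 lay above every WT array, and KO replicate 1 was lowest. Cyp1a1, the P450 best known as an aryl hydrocarbon receptor target, had a difference of 0.83 with KO replicate 4 at 8.10 among the WT values of 7.24 to 8.24 (adjusted p = 0.258). Ephx1, the microsomal epoxide hydrolase, averaged 10.89 ± 0.08 in WT and 10.68 ± 0.10 in KO (adjusted p = 0.361).

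The carboxylesterase Ces1g had the largest called difference. Carboxylesterases split ester bonds of drugs and lipids, and the Ces1 genes form a cluster on chromosome 8. Ces1g was at 8.99, 8.66, 8.80, 7.96 and 8.41 in WT and at 4.48, 3.86, 3.64 and 3.62 in KO. WT replicate 4 was the lowest WT array and still more than 3 log2 units above the highest KO array. The difference of 4.67 (SE 0.301, adjusted p = 2.12e-26) is 25.4-fold. Its air-exposed counterparts were 4.53 ± 0.38 in KO at 26 weeks, and 5.86, 5.61 and 5.38 (means) in WT at 52, 78 and 104 weeks. Exposed WT lungs averaged 5.76 at 52, 7.79 at 78 and 8.12 at 104 weeks, so the 52-week group lay lower than the 26-week one. In CD-1 mice at 26 weeks the level ran from 5.71 to 6.39 in air and from 7.87 to 9.06 in styrene.

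Other carboxylesterases and conjugating enzymes were higher in WT as well. Ces1f was at 6.99, 6.70, 6.92, 6.75 and 6.54 in WT and 4.53, 5.23, 6.17 and 5.01 in KO. The arrays did not overlap, and KO replicate 3 came closest to WT. Its difference of 1.55 (adjusted p = 0.0116) was not called without KO replicate 1 (1.31, adjusted p = 0.0657), KO replicate 4 (1.47, adjusted p = 0.0878) or the row A arrays. Ces1c averaged 3.56 ± 0.26 in WT and lay under the filter on dim genes in KO, so it was at least 1.40-fold higher (adjusted p = 0.0136). It too lost its call without WT replicate 4 (adjusted p = 0.0598), KO replicate 4 (adjusted p = 0.136) or with the axis covariate. Ces1e, at 6.37 ± 0.15 against 5.55 ± 0.29, did not pass (0.82, adjusted p = 0.128), although no arrays overlapped.

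Ugt1a9 and Ugt1a6a encode glucuronosyltransferases with shared last exons, so part of their signal may be common. Ugt1a9 was at 10.23, 10.13, 10.16, 10.03 and 9.91 in WT and 9.15, 9.46, 9.68 and 9.19 in KO (0.72, adjusted p = 8.08e-06). Ugt1a6a had 11.19 ± 0.10 and 10.57 ± 0.23 (0.62, adjusted p = 9.58e-04), and was not called without the row A arrays. Of the 21 conjugation and carboxylesterase genes 4 were higher and none lower, against 0.236% and 0.102% of all genes. The called members Ces1g and Ces1f were followed from earlier results of these data, so this share is not independent of them. In 19 of the 21 the difference was positive, with a median of 0.20. The glutathione transferases of this list were not called. Gstm1 had 0.33 (adjusted p = 0.227), Gstp1 0.20 (adjusted p = 0.242) and Gsta2 0.50 (adjusted p = 0.275). Gstt2, outside the list, was called at 8.44 ± 0.20 against 7.81 ± 0.14 (0.62, adjusted p = 0.0294), but not without any of 6 of the 9 single arrays (adjusted p up to 0.189) or with the axis covariate.

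Of 20 Nrf2 target genes 4 were higher in WT and 0 lower, against 0.236% and 0.102% of all genes, and the call of 1 of the 4, Srxn1, rested on single arrays. Gpx2, another of the 4, was followed from earlier results of these data. Nqo1, a quinone reductase, was at 7.31, 7.25, 7.08, 6.65 and 6.71 in WT and 5.25, 5.69, 5.27 and 5.04 in KO. WT replicates 4 and 5 were the lowest of their group and lay about 1 log2 unit above the highest KO array. The difference was 1.68 (3.21-fold, SE 0.228, adjusted p = 1.14e-07). Gpx2, an epithelial glutathione peroxidase, was at 10.03, 9.84, 9.80, 9.63 and 9.57 against 7.91, 8.63, 8.87 and 8.31 (1.34, adjusted p = 2.72e-04). Cbr3, a carbonyl reductase, was at 9.52, 9.55, 9.55, 9.35 and 9.40 against 8.16, 8.44, 8.74 and 8.53 (1.01, adjusted p = 1.06e-06). KO replicate 1 was the lowest array for both genes.

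Srxn1, the sulfiredoxin that repairs peroxiredoxins, was at 6.93 ± 0.08 in WT and 6.37 ± 0.09 in KO. Its 0.56 (adjusted p = 0.0352) was not called without any of 7 single arrays (WT replicates 1 to 4, KO replicates 2 to 4; adjusted p from 0.0555 to 0.205), without row A, without a plate term or with the covariate. The classical targets Hmox1 (0.36, adjusted p = 0.514), Gclc (0.09, adjusted p = 0.805), Gclm (0.17, adjusted p = 0.432) and Txnrd1 (0.21, adjusted p = 0.295) did not pass. The list median was 0.22 against 0.06 over all genes, and 19 of 20 differences were positive. With the covariate 3 of the 20 were called, beside 24 of all 15695 genes, and the median was 0.16.

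Among aryl hydrocarbon receptor targets 2 of 10 were called, Nqo1 and Ugt1a6a, which also belong to the lists above, against 0.338% of all genes. The median of the 10 was 0.03, and Cyp1b1 (0.07) did not pass. Ahrr lay below the filter on dim genes in both groups. Blvrb, a biliverdin reductase outside these lists, was at 9.18 ± 0.18 against 8.52 ± 0.13 (0.66, adjusted p = 0.0391). It was not called without any of 6 single arrays (adjusted p up to 0.196), without row A or with the covariate.

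**Figure D2:**
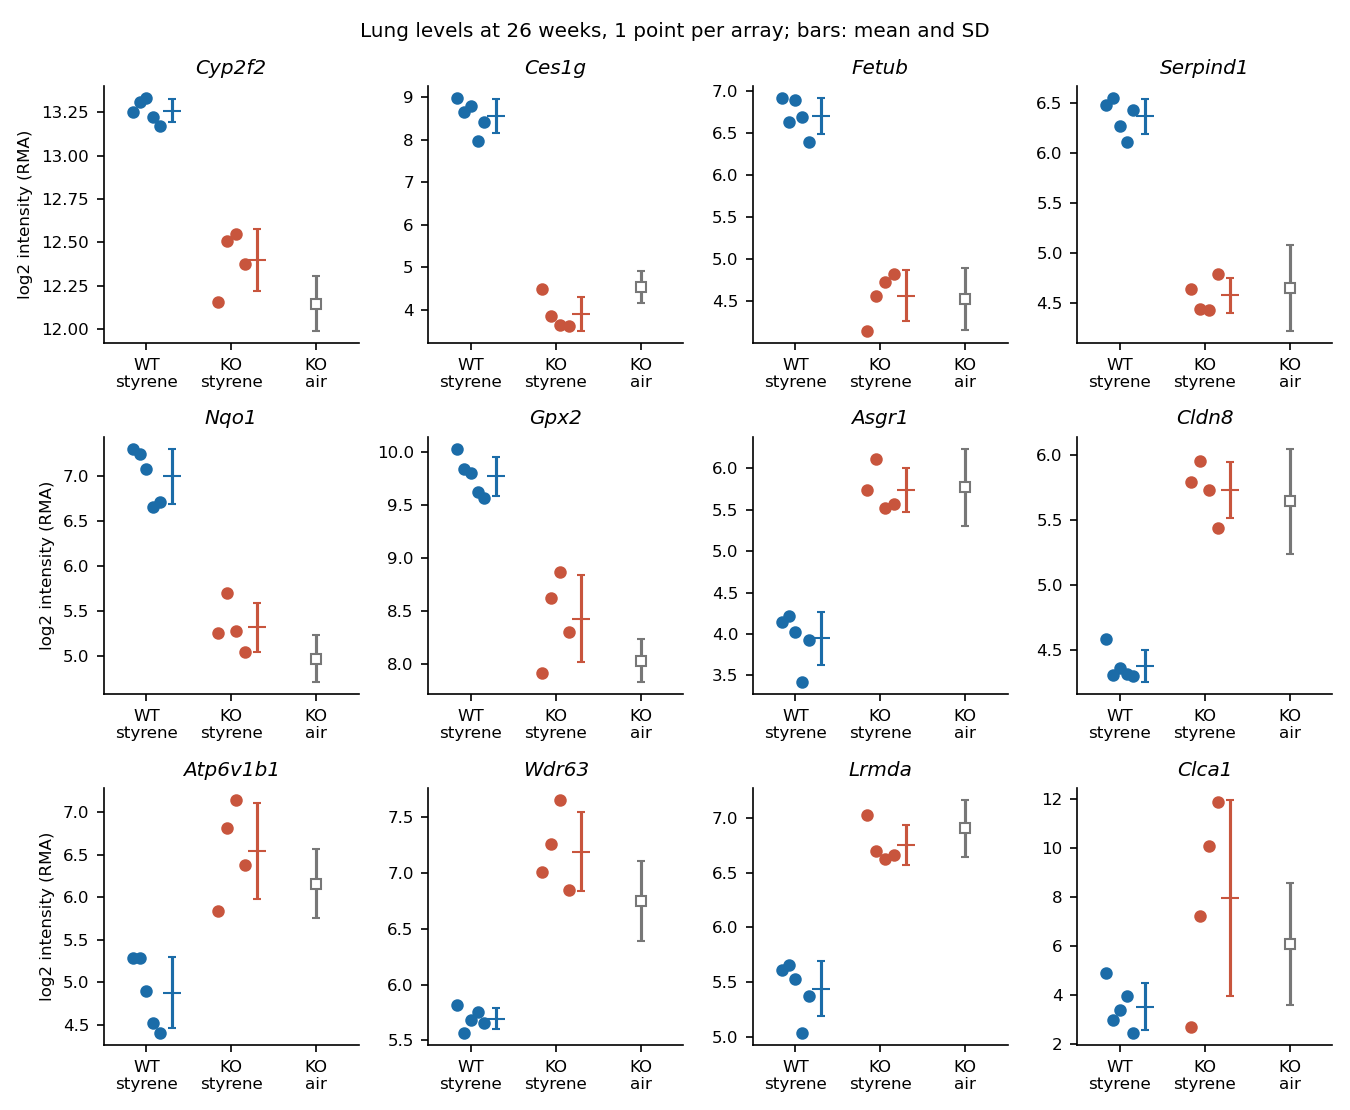
Log2 intensity of 12 genes in each exposed WT and KO array at 26 weeks (points), with mean and SD beside them and the mean and SD of the 5 KO air arrays as open squares; each vertical axis has its own range. The exposed groups do not overlap in any panel except Clca1, where the KO arrays run from 2.70 to 11.88.

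Plasma proteins are made mainly by the liver, yet 2 genes of this class were higher in exposed WT lungs. Fetub, a fetuin that inhibits proteases, was at 6.91, 6.63, 6.89, 6.69 and 6.39 in WT and 4.15, 4.57, 4.74 and 4.83 in KO (2.13, 4.38-fold, SE 0.283, adjusted p = 7.42e-08). Serpind1, which encodes heparin cofactor II, a thrombin inhibitor, was at 6.48, 6.56, 6.27, 6.11 and 6.43 in WT and 4.64, 4.44, 4.43 and 4.79 in KO (1.79, 3.47-fold, SE 0.269, adjusted p = 1.81e-06). Exposed WT and KO arrays were separated by more than 1 log2 unit for both genes. KO air lungs of the same week were at 4.53 ± 0.37 for Fetub and 4.65 ± 0.43 for Serpind1, next to the exposed KO values.

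The liver-defining genes Alb, Apoa1 and Ttr were near the dim end in exposed WT and KO lungs. Alb was 3.51 ± 0.29 in WT and 3.43 ± 0.09 in KO, Apoa1 3.21 ± 0.19 and 3.22 ± 0.11, and Ttr 3.55 ± 0.10 and 3.52 ± 0.06. Kng1, the kininogen gene, lay below or near the filter on dim genes in both groups, so no fold is given (adjusted p = 0.295). Of 24 measured plasma protein and coagulation genes 2 were higher and 1 lower, against 0.236% and 0.102% of all genes. All called members were among the genes followed from earlier results of these data, so this share gives no independent support. The median of the 24 was 0.02.

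The lower member was Asgr1, the main subunit of the receptor that clears desialylated glycoproteins. It was at 4.14, 4.22, 4.03, 3.41 and 3.93 in WT and 5.74, 6.12, 5.52 and 5.57 in KO. All WT arrays lay more than 1 log2 unit below all KO arrays, and KO air lungs were at 5.77 ± 0.47. The difference of -1.79 (SE 0.418, adjusted p = 0.0191) was not called without WT replicate 4 (-1.66, adjusted p = 0.0637), KO replicate 2 (-1.67, adjusted p = 0.102) or KO replicate 4 (-1.85, adjusted p = 0.0634). Pon1, a lipoprotein-bound esterase, was at 9.64, 9.50, 9.32, 9.38 and 9.41 in WT and 10.31, 10.53, 10.49 and 10.15 in KO. Those values did not overlap, but the difference of -0.92 did not pass (adjusted p = 0.115). It did with the 9 arrays alone (adjusted p = 1.33e-03) and the 26-week arrays (adjusted p = 2.23e-03), not with the C57BL/6 arrays (adjusted p = 0.0503).

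The promoters of the called genes were searched for the core of the antioxidant response element, the site that Nrf2 binds. The search used RefSeq windows (GRCm38.p6) from 250 bases before to 50 after each start and the letters TGACNNNGC on both strands. Of 29 matched genes higher in WT, 3 held the core (10.3%), and of 11 lower in WT, 1 did (9.09%), against 16.3% of all tested genes and 14% of all genes in the table. Of the 16 matched Nrf2 targets among the tested genes 7 held it (43.8%), and of the 4 called ones only Srxn1 did. The 3 matches in genes higher in WT are shown with the core in capitals, read along the gene's strand, the plus strand in each.
Serpind1: agggttctgcTGACAAAGCtacttgagtg
Fetub: cagctttcttGCTGCGTCAtgcgtgggcg
Srxn1: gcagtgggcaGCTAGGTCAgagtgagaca
The Serpind1 stretch is chr16:17331293-17331321, with the core 68 to 60 bases before the start. That of Fetub is chr16:22920102-22920130, with the core on the opposite strand. That of Srxn1 is chr2:152105542-152105570, with the core on the opposite strand and just after the start. A match is a description of letters and shows no binding.

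Besides Asgr1, genes of varied function were lower in exposed WT lungs. Atp6v1b1, a subunit of the vacuolar proton pump, was at 5.28, 5.28, 4.90, 4.51 and 4.40 in WT and 5.84, 6.82, 7.15 and 6.38 in KO (-1.67, SE 0.307, adjusted p = 3.72e-04). KO replicate 1 was lowest and lay closest to WT. Wdr63, a protein linked to dyneins of motile cilia, was at 5.82, 5.56, 5.69, 5.75 and 5.65 against 7.00, 7.26, 7.66 and 6.85 (-1.50, adjusted p = 2.35e-03). WT values were tight, within 0.10 SD, and the KO SD was 0.35.

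Lrmda, a leucine-rich repeat gene linked to pigment cells, was at 5.61, 5.65, 5.53, 5.03 and 5.38 in WT and 7.03, 6.69, 6.63 and 6.66 in KO (-1.31, adjusted p = 1.15e-06). Acpp, an acid phosphatase, was at 5.27, 5.21, 4.96, 4.76 and 5.01 against 5.91, 6.29, 6.44 and 6.02 (-1.12, adjusted p = 2.06e-04). Sorl1, a receptor that sorts endosomal cargo, was at 9.34, 9.26, 9.17, 9.35 and 9.23 against 10.13, 10.25, 9.88 and 10.44 (-0.90, adjusted p = 5.4e-05). No arrays overlapped for any of the 3. These values are of each gene's brightest probe set. Dimmer probe sets had -0.03 for Acpp, -1.92 and -0.002 for Lrmda, and -0.60 and -0.25 for Sorl1. That of Acpp, at 2.97 in WT and 2.99 in KO, lay near the filter on dim genes.

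Cldn8, a claudin of tight junctions, was at 4.59, 4.31, 4.37, 4.32 and 4.30 in WT and 5.79, 5.95, 5.73 and 5.44 in KO (-1.35, adjusted p = 0.0116). It was not called without KO replicate 2 (-1.28, adjusted p = 0.075) or with the covariate. Hepacam (-1.73, adjusted p = 0.0257) and Clmp (-1.36, adjusted p = 0.044), both cell adhesion proteins, had exposed KO levels of 6.20 ± 0.31 and 5.59 ± 0.37. Hepacam was not called without WT replicates 2 or 4 or KO replicates 2 or 4 (adjusted p from 0.0665 to 0.167), nor Clmp without any of 7 single arrays (adjusted p from 0.071 to 0.226). Slc12a2, a sodium, potassium and chloride cotransporter, was at 8.90 ± 0.26 against 9.78 ± 0.13 (-0.88, adjusted p = 0.0411), and 6 single arrays decided that call (adjusted p up to 0.230 without one). The remaining lower genes were Nufip2, Lrrc6, Rassf9, A930001A20Rik, Vps41 and Alkbh8, at -0.94 to -0.49. Their calls were lost in 8 of 21 alternatives for Nufip2, 11 of 20 for Lrrc6, 4 of 21 for Rassf9, 3 of 21 for A930001A20Rik, 9 of 21 for Vps41 and 6 of 20 for Alkbh8, the fits without 1 array included.

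Other genes higher in WT had more scattered functions. Il1f9, which encodes the epithelial cytokine interleukin-36 gamma, was at 5.82, 5.50, 5.62, 5.59 and 5.91 in WT and 3.84, 3.69, 4.28 and 3.84 in KO (1.78, 3.43-fold, adjusted p = 5.75e-03). Opn3, an opsin, was at 6.25, 6.14, 6.37, 6.22 and 6.13 against 5.34, 5.58, 5.57 and 5.37 (0.76, adjusted p = 1.17e-03). Sptssb, a small subunit of the enzyme that starts sphingolipid synthesis, had 6.61 ± 0.29 and 5.25 ± 0.18 (1.36, adjusted p = 0.0116), and was not called without KO replicates 3 or 4 (adjusted p = 0.0718 and 0.0656) or row A. Groups of Il1f9 and Opn3 were separated without overlap in each array. Further higher genes lost their calls in part of the alternative fits. Of 21 fits, losses were 2 for Haus4, 4 for Smim38, 6 for Dap3, 7 for Ptprn and 8 for Ppp1r14d. They were 9 of 21 for Urah, Ddt, Chst12 and Arl2, and 10 of 21 for Scnm1. Of 20 fits, losses were 3 for Rhox9, 5 for Ly6g6c and 6 for Pnliprp1 and Ccl28. They were 8 of 20 for Hoxc13, Cnga2 and Aadacl4fm5.

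For 2 genes the KO animals themselves fell apart. Wdfy1, an endosomal adaptor, was at 7.47, 7.66, 7.55, 7.96 and 7.75 in WT and 6.21, 7.32, 5.80 and 5.83 in KO (1.39, adjusted p = 3.49e-03), with KO replicate 2 near WT. It was not called without KO replicates 3 or 4 (adjusted p = 0.0626 and 0.0753). These values are of its brightest probe set, and its other probe sets were also higher in WT, by 1.95, 1.25 and 0.91. Pttg1, the securin gene, was at 12.02, 11.74, 11.78, 11.72 and 11.76 in WT and 11.29, 11.13, 9.06 and 11.04 in KO, where only replicate 3 was low. Its difference of 1.18 did not pass (adjusted p = 0.149), whereas it was 2.47 in styrene and 2.58 in air at later weeks, both called. KO air lungs at 26 weeks were at 9.36 ± 1.02.

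All 13 measured ciliated cell markers had negative differences, with a median of -0.44, against 0.06 over all genes, and 0 were called by limma. The largest were Rsph4a, a radial spoke protein, at -1.17 (adjusted p = 0.0945), Dnah5, an outer arm dynein, at -0.97 (adjusted p = 0.0948) and Hydin at -0.69 (adjusted p = 0.128). WT and KO arrays did not overlap for 4 of the 13, against 16.2% of all genes. Foxj1, the master regulator of ciliated cells, was at 7.89 ± 0.33 and 8.01 ± 0.35 (-0.11), and Tppp3 at 11.76 ± 0.15 and 11.81 ± 0.10 (-0.06). The mean level of the 13 ran from 7.24 to 7.63 over WT arrays and from 7.46 to 8.23 over KO arrays. With the 9 arrays alone 4 of the 13 were called, beside 2200 of all 15695 genes, and other lists gained calls too, such as p53 targets (4 of 14) and alveolar type 2 markers (3 of 11). With the covariate 0 of the 13 were called, and the median was -0.28.

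Club cell markers had 1 called member of 15, the targeted gene Cyp2f2 itself, against 0.338% of all genes. Of the 15 differences 12 were negative, with a median of -0.30. Scgb1a1, the defining secretoglobin, was 13.84 ± 0.03 in WT and 13.92 ± 0.04 in KO (-0.08, adjusted p = 0.297), near the top of the scale. Scgb3a2 was at -0.14 and Cbr2 at -0.01, while Lypd2 was at 9.42, 9.48, 9.54, 9.34 and 8.56 in WT and 9.74, 10.52, 11.36 and 10.59 in KO (-1.28, adjusted p = 0.0662). Bpifa1 (-1.70), Muc5b (-1.19) and Reg3g (-1.13), genes of the airway mucosa, did not pass and had SDs within groups of 0.39 to 1.91. Alveolar type 2 markers went the other way in all 11 members, with a median of 0.10 and 0 called.

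Several KO arrays carried large signals of single genes, which were picked after their values were seen. Clca1, a goblet cell protein, was at 4.91, 2.98, 3.41, 3.95 and 2.45 in WT and 2.70, 7.22, 10.12 and 11.88 in KO (-4.44, SE 1.16, adjusted p = 0.0544). KO replicate 1 lay among the WT arrays. KO air lungs were at 6.10 ± 2.48, so the gene also varied without exposure. Acta1, the skeletal muscle actin, was at 3.78 to 4.17 in WT and at 4.03, 3.78, 8.99 and 7.46 in KO (adjusted p = 0.0583), with Tnnc2 at 6.69 in KO replicate 4 and no more than 3.05 elsewhere. Acta1 did pass with the C57BL/6 arrays (adjusted p = 4.75e-05) and the 26-week arrays (adjusted p = 0.0297), not with the 9 arrays alone (adjusted p = 0.114). The summarised skeletal muscle list averaged 3.43 to 3.68 over WT arrays and 3.48 to 5.19 over KO arrays.

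No marker of heart muscle, mesothelium or skeletal muscle was called. Heart muscle markers had a median of -0.53, 9 of 11 negative and 0 called, with array means of 5.88 to 6.91 in WT and 6.66 to 7.07 in KO. Their part in the genes lower in WT was not tested. Mesothelial markers had a median of 0.33 (0 of 7 called). Medians lay between -0.28 and 0.14 and limma called no member, with all arrays in the fit, for the markers of endothelium, fibroblasts and matrix, smooth muscle, fat, macrophages, neutrophils, lymphocytes, red cells and alveolar type 1 cells, skeletal muscle included. The same held for the lists of circadian clock, immediate-early, heat shock, glucocorticoid, interferon, antigen presentation, lipid synthesis, cell cycle and p53 genes. Single members of these varied, such as the clock genes Arntl (-1.24, adjusted p = 0.16) and Dbp (1.20, adjusted p = 0.33), whose arrays overlapped.

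**Figure D3:**
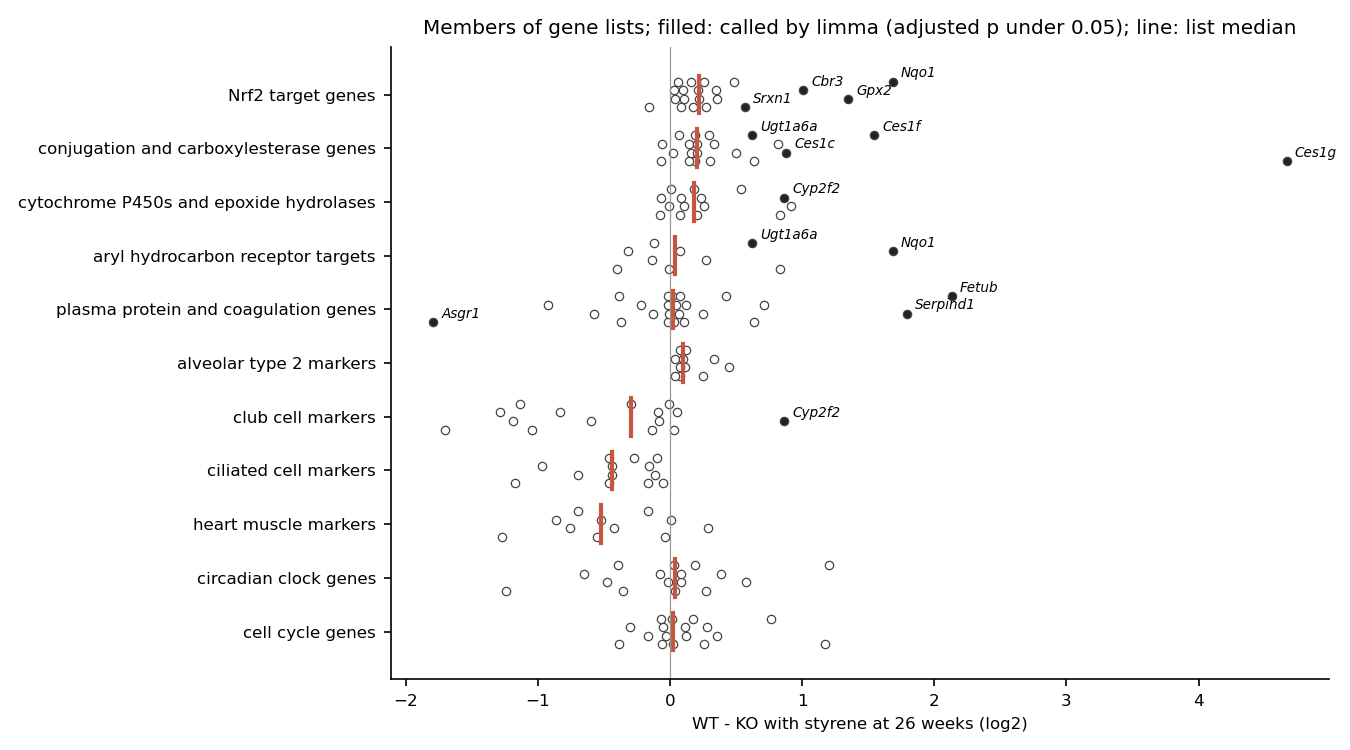
WT minus KO difference with styrene at 26 weeks (log2) of each measured member of 11 gene lists, with called members filled and named and each list's median as a line. Called members lie in 6 of the lists shown, and ciliated cell markers lie below 0 throughout, with a median of -0.44 and none called.

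Other mice of the same lines gave further values. The same fit, with 1 estimate of spread per gene, served all comparisons, so their calls are not fully independent. Under styrene at 52, 78 and 104 weeks 132 genes (0.841%) were called between WT and KO. Of the 53 genes 32 were among them in the same direction, which is 60.4% of the 53 and 24.2% of the 132, and 48 of the 53 had the same sign. Their number comprised 24 higher and 8 lower in WT. The calls of 27 of the 32 held without any 1 of the 30 arrays. Acpp lost its call without KO 104 weeks replicate 5 (adjusted p = 0.0502), while Ly6g6c, Pnliprp1, Hepacam and Srxn1 lost theirs without 3, 6, 6 and 7 of the 30 arrays. Asgr1 had -1.94, Cldn8 -1.07, Atp6v1b1 -1.21, Fetub 2.03 and Serpind1 1.45 in these mice. Sorl1, in contrast, had -0.04 (adjusted p = 0.929), and Clmp -0.30 (adjusted p = 0.719).

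In air at later weeks 50 genes (0.319%) were called between the lines, and 32 without WT air 78 weeks replicate 2. Of the 53 genes 14 were called in the same direction, 26.4% of the 53 and 28% of the 50. Those that held without any 1 of the 26 arrays were Cyp2f2, Ces1g, Ces1f, Fetub, Nqo1, Gpx2, Cbr3, Ugt1a9, Ugt1a6a, Wdfy1 and Lrmda. Dap3, Cnga2 and Scnm1 lost their calls without 15, 17 and 7 of the 26 arrays. Serpind1 (-0.02), Asgr1 (0.09), Cldn8 (0.14), Sptssb (0.06) and Opn3 (0.16) were not called there. In all, 18 of the 53 genes were called in none of the later styrene, air and CD-1 comparisons.

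**Figure D4:**
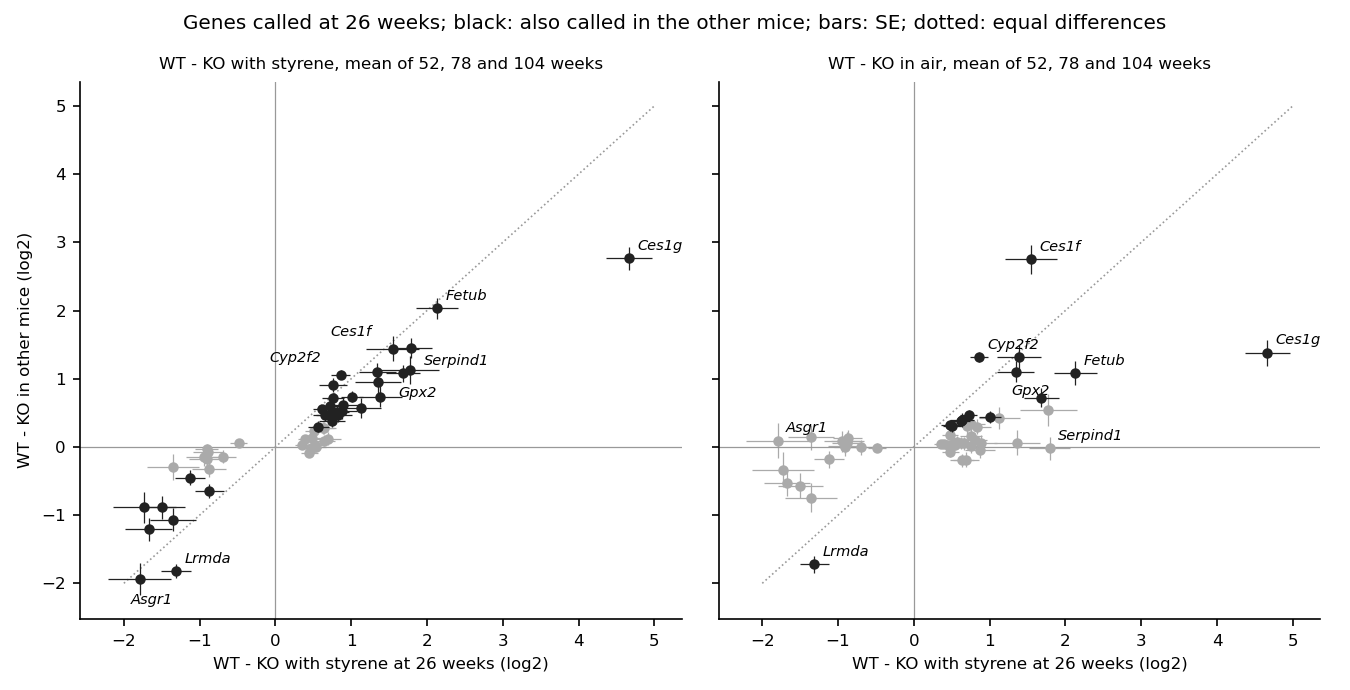
WT minus KO difference of the 53 called genes with styrene at 26 weeks (horizontal, log2) against the difference in other mice, with styrene (left) or in air (right) at 52, 78 and 104 weeks; bars are SE and black points are also called in the other mice. Ces1g, at 4.67, lies below the line of equal differences in both panels (2.77 and 1.38), and Serpind1 and Asgr1 lie near 0 in air.

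The change from air to styrene was tested directly by setting the WT minus KO difference in styrene at 26 weeks against that in air at later weeks. Exposure and week cannot be told apart in this contrast, which uses the same 9 arrays. It called 8 genes (0.051%). Ces1g (3.29, SE 0.355, adjusted p = 1.37e-11), Serpind1 (1.81, SE 0.317, adjusted p = 6.18e-04) and the secretory granule gene Ptprn (0.83, adjusted p = 0.0329) had larger differences in styrene at 26 weeks. Pon1 (-1.55, adjusted p = 0.019), the inter-alpha-trypsin inhibitor chain Itih2 (-1.14, adjusted p = 0.0108), A930001A20Rik (adjusted p = 0.0332), Sorl1 (-0.91, adjusted p = 8.28e-03) and the mitochondrial acetate-activating enzyme Acss1 (-0.66, adjusted p = 9.22e-03) had lower ones. For Pon1 the line difference was 0.63 in air and -0.92 in styrene at 26 weeks, and for Itih2 0.56 and -0.58.

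Ces1g and Serpind1 held this call without any 1 of the 35 arrays, and Sorl1 without all but KO replicates 2 (adjusted p = 0.0562) and 4 (adjusted p = 0.0743). Acss1 and Itih2 lost it without WT air 78 weeks replicate 2 (adjusted p = 0.0553 for both) or KO replicates 2 or 3 (adjusted p from 0.0699 to 0.164). Pon1 lost it without these or WT replicate 3 (adjusted p from 0.0528 to 0.150), Ptprn without 6 arrays and A930001A20Rik without 15. Averaging the probe sets of a gene ended the call of Sorl1 (adjusted p = 0.180) and Acss1 (adjusted p = 0.443), and the covariate that of Pon1 (adjusted p = 0.169), Ptprn (adjusted p = 0.208) and A930001A20Rik (adjusted p = 0.249). The count of 8 became 5 without WT replicate 3, 3 without WT air 78 weeks replicate 2, and 15, 2, 3 and 5 without KO replicates 1 to 4. Asgr1 (-1.89, adjusted p = 0.17) and Cldn8 (-1.49, adjusted p = 0.0758) did not pass, although neither differed by more than 0.14 in air.

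Within KO mice, which share the exposed KO arrays with the main comparison, styrene and air at 26 weeks had 0 genes (0%) past limma's adjusted threshold and 363 with an unadjusted p below 0.05. Alternative fits called 0 to 3. Exposed minus air KO was -0.63 for Ces1g, 0.04 for Fetub, -0.07 for Serpind1, 0.35 for Nqo1, 0.40 for Gpx2, 0.25 for Cyp2f2, -0.03 for Asgr1 and 0.09 for Cldn8, none of them called. Exposed TG mice, which lack CYP2F2 as well, lay between 4.40 and 4.65 for Ces1g, 4.58 and 4.95 for Serpind1, 4.41 and 5.19 for Fetub and 5.11 and 5.88 for Nqo1. For all 4 genes every exposed TG array lay below every exposed WT array.

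CD-1 mice at 26 weeks, which carry Cyp2f2 (-0.02 between styrene and air), had 102 genes (0.65%) called between styrene and air, 61 without CD-1 styrene replicate 2 and 67 without replicate 3. Of the 53 genes 9 were called in the same direction, 17% of the 53 and 8.82% of the 102, all higher. They were Serpind1 (2.92), Ces1g (2.38), Fetub (1.57), Smim38, Pnliprp1 (1.08), Nqo1 (1.02), Cbr3 (0.78), Opn3 (0.67) and Ugt1a9 (0.52). Nqo1 was not called without CD-1 styrene replicate 2 (0.78, adjusted p = 0.0781), nor Pnliprp1 without any of 5 arrays. Gpx2 was at 0.65 (adjusted p = 0.3) in the same mice. Of the genes lower in exposed WT, none was called in CD-1, with Asgr1 at -0.61 (adjusted p = 0.85), Cldn8 at -0.15 and Atp6v1b1 at 0.30.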

How the data were processed

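Whole-lung total RNA was read on Affymetrix HT MG-430 PM arrays. Each probe set's deposited value is a log2 intensity, made by the authors with RMA in Partek per the submitters' processing notes, with versions not given in the sources used here. From 45037 probe sets, 28898 had 1 gene in the platform annotation, with symbols updated through RefSeq (GRCm38.p6). The brightest probe set stood for each gene. Genes above each array's 30th percentile in at least 3 arrays were tested (15695 of 17097). A model of 31 group means and a term for plate 2 was fitted to all 150 arrays with limma 3.58.1 in R 4.3.3, with Benjamini-Hochberg adjustment at 0.05. Plates were inferred from wells in the labels. A probe set under that percentile in a group gives only a bound. The labels call the arrays biological replicates. Named genes were the target, called genes at both extremes (15 of the highest and 15 of the lowest differences), up to 3 members of each of 31 gene lists with the smallest p, the 5 highest and 5 lowest of the styrene against air contrast, and genes followed from earlier results. Other genes, such as cell type markers near no difference, Blvrb, Gstt2, Cyp4f13 and Ugt1a9, were chosen after their values were seen. Members and lists were chosen with earlier results of these data known. The fit was tested on simulated data.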

Additional observations from a re-analysis of the deposited data

Results flagged for a closer look

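Single arrays stood far from the rest of their group for 12 of the 80 genes named in the text that were checked. This was judged by the gap to the nearest array over the group's range (Dixon's criterion), in 160 sets of arrays. The criterion was met in 14 sets, and chance gives about 1 in 20 sets. In WT, replicate 1 was highest for Cldn8 (4.59) and Pttg1 (12.02) and lowest for Dbp (8.14). WT replicate 5 was lowest for the airway genes Lypd2 (8.56), Muc5b (6.68) and Reg3g (5.51), whose nearest arrays were at 9.34, 8.09 and 8.92. WT replicate 3 was lowest for Rsph4a (4.61), and WT replicate 4 highest for Tnnc2 (3.05). In KO, replicate 4 was highest for Tnnc2 (6.69, nearest array 3.01) and Clmp (6.13), replicate 3 lowest for Pttg1 (9.06) and highest for Tppp3 (11.96), and replicate 1 highest for Lrmda (7.03) and Ttr (3.61).

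The line difference itself changed between styrene at 26 weeks and air at later weeks for 8 genes by limma's test of that contrast. It was 3.29 for Ces1g, 1.81 for Serpind1 and 0.83 for Ptprn, and -1.55 for Pon1, -1.14 for Itih2, -1.003 for A930001A20Rik, -0.91 for Sorl1 and -0.66 for Acss1. Exposure and week cannot be told apart in it.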

How the results depend on the processing

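No call of a named gene changed sign under any alternative run. The count of 53 genes between exposed WT and KO lungs at 26 weeks became 2200 with the compared arrays alone, 1041 with the 26-week arrays, 123 with the C57BL/6 arrays, 81 without well row A and 24 with the axis covariate, and ran from 22 to 120 without single arrays. Other filters, probe set averaging, trend and robust variances, no plate term and median centring kept it within 1.5 times. The 8 genes of the contrast between styrene at 26 weeks and air at later weeks became 86 with the compared arrays alone, 16 with C57BL/6 arrays and 5 with the covariate, and 2 to 15 without single arrays. The KO count of 0 became 1 with C57BL/6 arrays and 3 with 26-week arrays, and stayed 0 without any single array. The CD-1 count of 102 became 44 with its own arrays and 177 with the covariate, and 61 to 110 without single arrays. Without single arrays the later styrene count ran from 96 to 172 and the later air count from 32 to 54, where the KO air group of 6 arrays at 104 weeks was kept whole.

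Deviations of WT and KO arrays with equal replicate numbers correlated at 0.03, 0.12, 0.02 and 0.21 for the 4 shared numbers. With unequal numbers the correlations ran from -0.20 to 0.12. Whether equal numbers mark paired arrays was not tested. With the replicate number as a block, fitted on the compared groups, the counts were 1702 (26 weeks), 64 (later styrene), 25 (later air), 4 (the contrast of both), 2 (KO) and 28 (CD-1). The number of arrays limits precision, and genes near the array's dim end, such as Ces1c and Krtap5-5, have only bounds on their fold.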
